A study of Sus scrofa with 12 samples.

Results

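PER2, NFIL3 and CIPC are 3 genes of the circadian clock, and their RNA was followed in the left ventricle of pigs with and without chronic ventricular pacing. They were taken as every probe set whose platform annotation carries one of these symbols. That gave 3 probe sets of the 27558 on the array, 1 for each gene and 3 of 12361 genes named by a single symbol, namely 15241978 for PER2, 15229317 for NFIL3 and 15313057 for CIPC. Their Entrez gene IDs are 100154609 for PER2, 100153822 for NFIL3 and 100157174 for CIPC. All 3 were among the 20669 probe sets bright enough to be tested.

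The pigs were female and 13 months old, and 12 were enrolled, 6 in each treatment. Paced pigs had complete atrioventricular block, made with an ablation catheter, and a pacemaker in VDD mode, in which ventricular beats follow sensed atrial ones. Control pigs were a sham group of the same age, and the treatment text places the ventricular lead on the right ventricular septum and the atrial lead in the right atrial appendage in all pigs. Tissue of the left ventricular free wall and of the septum was taken 6 months after surgery. The 12 arrays form 4 groups of 3: free wall paced, free wall control, septum paced and septum control, each numbered 1 to 3. The labels tie no array to an animal, do not say whether animals were pooled, and give no time of day for the sampling, so a p-value here reflects only how far these arrays differ among themselves.

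The circadian clock is a feedback loop of transcription that runs in nearly every cell, the heart muscle cell included. CLOCK and its partner ARNTL (also called BMAL1) activate genes through E-box elements. PER2, with the cryptochromes, holds that pair back, and CIPC is a further repressor that binds CLOCK. NFIL3 (also called E4BP4) is a bZIP repressor that acts at D-box elements, where DBP, TEF and HLF activate. In a tissue sampled at different hours of the day, RNA of such genes can differ between samples for that reason alone. The question was therefore how far these genes differed between paced and control tissue, and how far between same-numbered arrays, which are read from the free wall and the septum.

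Values are log2 signals after robust multi-array averaging (RMA), so a difference of 1 stands for a 2-fold ratio within 1 probe set. Signals of different probe sets are not set against each other. Array medians lay between 4.31 and 4.45. Free wall paced array 2 stood apart, at 45.3 on the first principal component against -22.3 to 19.2 for the other arrays, and had the lowest limma array weight (0.24, against 0.63 to 1.68). On the second component both control arrays numbered 1 were at the high end, with scores of 24.3 for the septum and 27.2 for the free wall, against -16.3 to 7.74 for the other 10 arrays. Ventricular muscle markers were bright throughout: MYH7 read 12.40 to 12.59 and MYL2 12.21 to 12.53, above at least 99.9% of probe sets.

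NFIL3 read lower in paced tissue on average, and its control arrays were far apart from each other. In the free wall it read 6.06, 5.47 and 6.54 in paced arrays 1, 2 and 3, against 7.86, 6.97 and 6.19 in control arrays 1, 2 and 3. In the septum it read 6.08, 5.89 and 5.87 in paced arrays and 7.84, 7.04 and 6.17 in control arrays, in the same order. Control arrays 1 and 2 lay above every paced array in both regions. Control array 3 lay among the paced arrays in the free wall, and in the septum it lay just above the highest paced array. Over all 12 arrays NFIL3 spanned 2.39 on the log2 scale, a 5.24-fold range. The 3 paced septum arrays spanned 0.21, and the 3 control arrays of each region spanned 1.67.

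PER2 ran the other way, being on average higher in paced tissue and lowest in control arrays 1. In the free wall it read 4.15, 4.19 and 4.64 in paced arrays, against 2.93, 3.85 and 4.31 in control arrays. In the septum it read 4.51, 3.99 and 4.51 in paced arrays, against 3.61, 3.97 and 4.17 in control arrays. The groups overlapped in both regions, and again control array 3 lay among the paced arrays. PER2 is dim: the lower quartile of an array was 2.91 to 3.13, and the lowest PER2 reading, in free wall control array 1, fell within that range, which limits how far that reading can be trusted.

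CIPC was lower in the paced free wall and much the same in the septum. In the free wall it read 5.06, 5.20 and 5.37 in paced arrays, against 6.43, 5.84 and 5.71 in control arrays, with no overlap. In the septum it read 5.79, 5.73 and 5.50 in paced arrays, against 6.12, 5.43 and 5.73 in control arrays, and these overlapped. CIPC was again highest in both control arrays numbered 1. Its range over the 12 arrays was 1.37, or 2.58-fold.

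**Figure D1:**
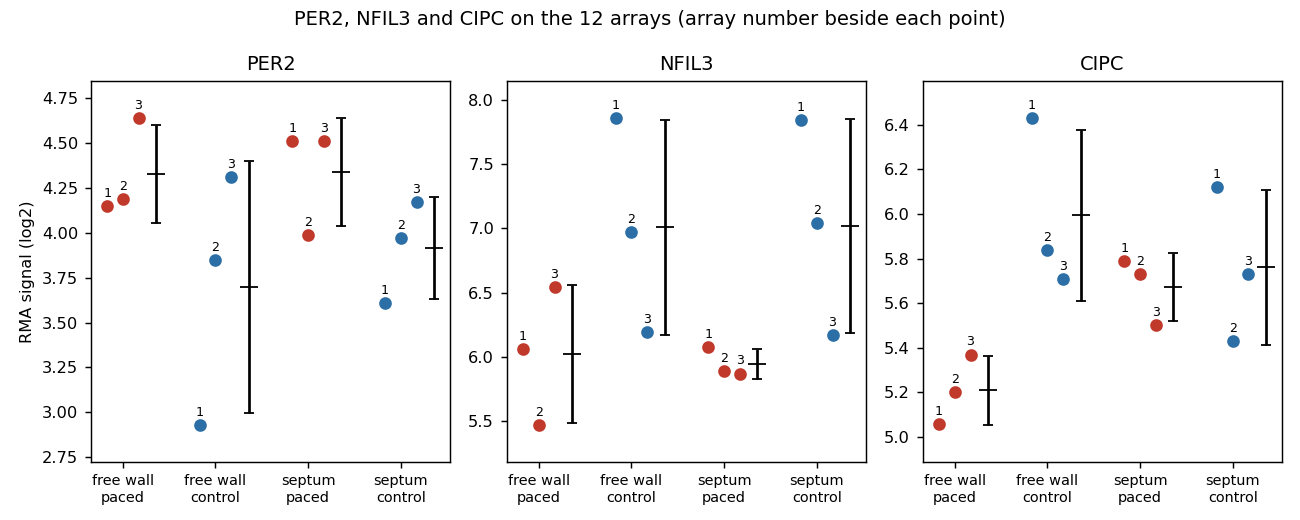
RMA log2 signal of PER2, NFIL3 and CIPC on each of the 12 arrays, by region and treatment, with the array number beside each point and the group mean ± SD (n = 3) at its right; the vertical axis does not start at 0 and differs between panels. NFIL3 shows 3 widely spaced control arrays at nearly the same heights in both regions (7.86, 6.97 and 6.19 in the free wall, 7.84, 7.04 and 6.17 in the septum).

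Pacing in the free wall was tested first, with limma on all 12 arrays and Benjamini-Hochberg adjustment over all probe sets tested. CIPC averaged 5.21 ± 0.16 in the paced free wall and 5.99 ± 0.38 in the control free wall (SD, n = 3 each), 1.72-fold lower. Its log2 difference was -0.78 (SE 0.21, 95% interval -1.24 to -0.33), with an unadjusted limma p of 0.0028 and an adjusted p of 0.943. NFIL3 averaged 6.02 ± 0.54 in the paced and 7.01 ± 0.84 in the control free wall, a log2 difference of -0.98 (SE 0.45, interval -1.96 to -0.0032, limma adjusted p = 0.998). PER2 averaged 4.33 ± 0.27 in the paced and 3.70 ± 0.70 in the control free wall, a difference of 0.63 (SE 0.30, interval -0.03 to 1.29, limma adjusted p = 0.998). None of the 3 genes passed at an adjusted p under 0.05, a threshold that 0.00484% of all probe sets passed in this comparison. The groups did not overlap for 1 of the 3, CIPC, against 8.16% of all probe sets.

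The NFIL3 and PER2 differences in the free wall leaned on control array 1. Without it, NFIL3 differed by -0.56 and PER2 by 0.25, while CIPC differed by -0.57. Without free wall paced array 2, the array that stood apart, NFIL3 differed by -0.71, PER2 by 0.70 and CIPC by -0.78. With limma array weights the NFIL3 difference was -0.63.

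In the septum, which lies next to the pacing lead, NFIL3 averaged 5.95 ± 0.12 in paced and 7.02 ± 0.84 in control arrays (SD, n = 3 each), 2.10-fold lower. The log2 difference was -1.07 (SE 0.45, interval -2.05 to -0.09), with an unadjusted limma p of 0.0349 and an adjusted p of 0.992. PER2 averaged 4.34 ± 0.30 in paced and 3.92 ± 0.28 in control septum, a difference of 0.42 (SE 0.30, limma adjusted p = 0.992). CIPC averaged 5.67 ± 0.15 in paced and 5.76 ± 0.35 in control septum, a difference of -0.09 (SE 0.21, interval -0.54 to 0.37, limma adjusted p = 0.995). Again none of the 3 passed, where 0.00968% of all probe sets did. The groups did not overlap for NFIL3 alone among the 3, against 10.5% of all probe sets. Without septum control array 1, NFIL3 differed by -0.66, PER2 by 0.27 and CIPC by 0.09.

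Markers of other cells also had differences between paced and control arrays. None passed, against 0.00484% of all probe sets in the free wall and 0.00968% in the septum. Of 8 macrophage and monocyte markers 6 were measured, and all 6 lay below 0 in the free wall, with a median log2 difference of -0.39. The free wall groups did not overlap for 3 of the 6, against 8.16% of all probe sets. In the septum 2 of these 6 lay above 0 and 4 below, with a median of -0.05. Their mean, each gene centred on its 12-array mean, was -0.474 to -0.034 in paced and 0.116 to 0.269 in control free wall arrays, and -0.083 to 0.089 in paced and -0.261 to 0.276 in control septum arrays. The dimmest of them was MSR1, with a lowest reading of 3.27, near the lower quartile of the arrays. The 6 measured fibroblast markers of 7 all lay above 0 in both regions, with medians of 0.30 in the free wall and 0.29 in the septum. These differences leaned on control arrays 1, where the mean of the list, centred the same way, was -0.867 in the free wall and -0.823 in the septum. The other free wall control arrays read 0.393 and 0.168, against 0.153 to 0.287 in paced ones. The other septum control arrays read 0.375 and -0.295, against 0.02 to 0.175 in paced ones. In bulk tissue, fewer cells of a type and less RNA per cell cannot be told apart. The part of these markers in the CIPC, NFIL3 and PER2 differences was not tested.

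The 2 regions of each numbered pair were then averaged, which left 3 values a treatment. NFIL3 then read 6.07, 5.68 and 6.21 in paced numbers 1, 2 and 3, against 7.85, 7.01 and 6.18 in control numbers 1, 2 and 3. Control number 3 lay between the paced values, and the other two control numbers lay above all of them. The limma difference was -1.03 (SE 0.37, interval -1.89 to -0.17, adjusted p = 0.867). PER2 read 4.33, 4.09 and 4.58 in paced numbers, against 3.27, 3.91 and 4.24 in control numbers, a difference of 0.53 (SE 0.24, limma adjusted p = 0.907). CIPC read 5.43, 5.47 and 5.44 in paced numbers, against 6.28, 5.64 and 5.72 in control numbers, a difference of -0.44 (SE 0.16, limma adjusted p = 0.878). All 3 paced CIPC averages lay below the 3 control averages. At an adjusted p under 0.05 none of the 3 passed, where 0.00484% of all probe sets did, and the values did not overlap for CIPC alone, against 10.4% of all probe sets. Without both control arrays numbered 1 the differences were -0.61 for NFIL3, 0.26 for PER2 and -0.24 for CIPC.

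CIPC was the member whose pacing effect differed most between regions. The septum effect minus the free wall effect was 0.70 for CIPC (SE 0.29, interval 0.05 to 1.34), with an unadjusted limma p of 0.0363 and an adjusted p of 0.999. For PER2 it was -0.21 (SE 0.43, interval -1.15 to 0.73) and for NFIL3 -0.09 (SE 0.63, interval -1.47 to 1.30). None of the 3 passed this test, which 0% of all probe sets passed (569 had an unadjusted p under 0.05). In this fit, which takes no account of array number, the widths of the PER2 and NFIL3 intervals leave room for sizeable differences in either direction.

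The regions were then compared within each treatment. In paced pigs the septum minus free wall difference was -0.08 for NFIL3 and 0.01 for PER2 (SE 0.45 and 0.30). In control pigs it was 0.01 for NFIL3 and 0.22 for PER2. The PER2 value was -0.16 without free wall control array 1, and -0.01 without both control arrays 1. CIPC read 5.50 to 5.79 in the paced septum and 5.06 to 5.37 in the paced free wall, with no overlap, as for 9.91% of all probe sets, and a difference of 0.46 (SE 0.21, limma adjusted p = 0.738). In control pigs its septum minus free wall difference was -0.23 (SE 0.21, limma adjusted p = 0.997). Leaving out each array in turn gave -0.41 to -0.015. The low end was without septum control array 1 and the high end without free wall control array 1. The difference was -0.07 without septum control array 2. Leaving out 1 array keeps its same-numbered partner in the other region, so the spread between numbers enters these values. None of the 3 passed in paced or in control pigs, and 0% of all probe sets did in either. At an unadjusted limma p under 0.05 there were 1391 probe sets in paced pigs and 758 in control pigs.

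**Figure D2:**
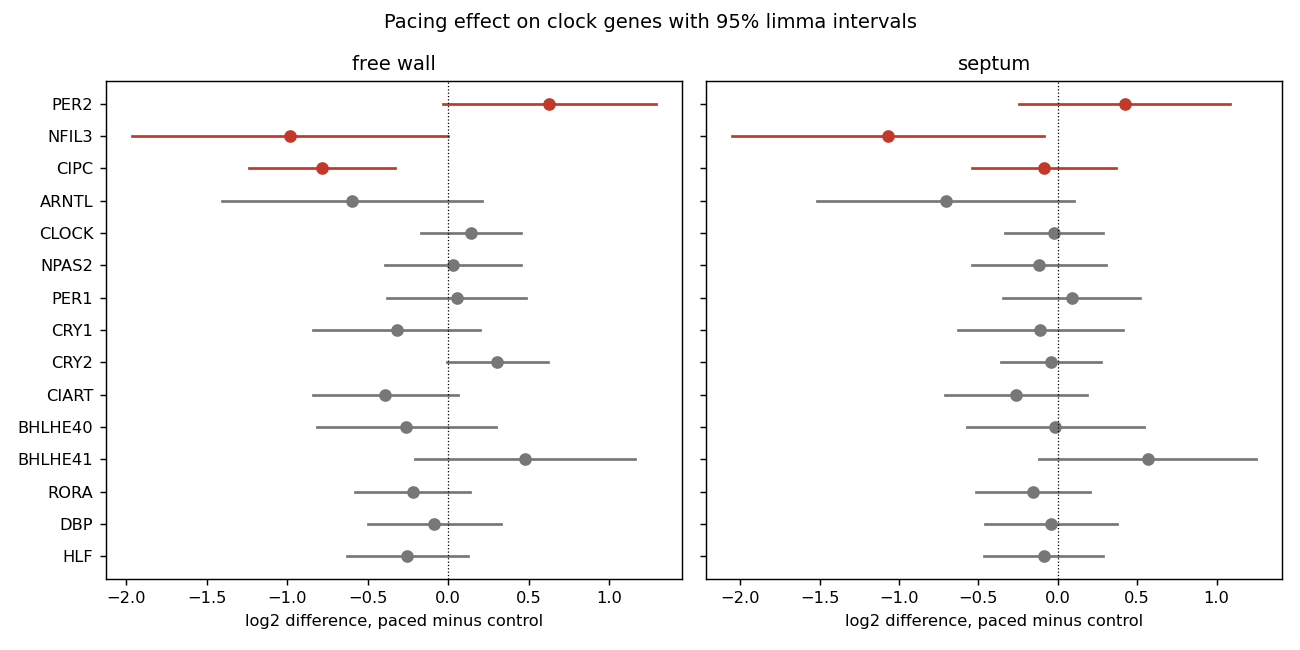
Log2 difference of paced minus control arrays, with its 95% limma interval, for PER2, NFIL3 and CIPC (red) and the other core clock genes tested (grey), in the free wall and in the septum. The intervals of NFIL3 (-1.96 to -0.0032 in the free wall, -2.05 to -0.09 in the septum) are the widest drawn; that of CIPC leaves out 0 in the free wall only.

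Same-numbered arrays were then set side by side. In paced pigs NFIL3 read 6.08 in the septum and 6.06 in the free wall for number 1, 5.89 and 5.47 for number 2, and 5.87 and 6.54 for number 3. The septum minus free wall differences were 0.02, 0.42 and -0.67 in these paced pairs. In control pigs NFIL3 was almost the same in both regions of a number: 7.84 in the septum and 7.86 in the free wall for number 1, 7.04 and 6.97 for number 2, and 6.17 and 6.19 for number 3. The control differences were -0.02, 0.07 and -0.02, while the averages of control numbers 1 and 3 were 7.85 and 6.18. The SD of NFIL3 between numbers was 0.273 in paced and 0.835 in control pigs, and its SD between regions of one number was 0.390 in paced and 0.037 in control pigs. The SD between regions was taken about the mean septum minus free wall difference of the treatment, so a constant gap between regions does not enter it. So the NFIL3 spread between control numbers was larger than that within a number, and among paced numbers, paired as labelled, it was not. Over all probe sets tested, however, the paced arrays did not pair by number. Their deviations from the group means correlated at 0.09, -0.17 and -0.18 between same-numbered arrays, and at 0.41 for septum 1 with free wall 3, 0.42 for septum 2 with free wall 1 and 0.48 for septum 3 with free wall 2. Same-numbered control arrays correlated at 0.32, 0.25 and 0.24. Each paced value that rests on the number, here and in the averages, shares, F test and orders, therefore holds for the labelled numbers only. Over all probe sets tested, the median SD between numbers was 0.136 in paced and 0.113 in control pigs, and that between regions 0.214 in paced and 0.128 in control pigs.

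By the SD between regions of one number, PER2 and CIPC varied more than NFIL3 in control pigs and less in paced pigs. That SD leaves out the mean gap between regions. In paced pigs CIPC had a gap of the same direction in every pair, though of uneven size. The SD of PER2 between numbers was 0.243 in paced and 0.493 in control pigs, and that between regions of one number 0.216 in paced and 0.296 in control pigs. Its septum minus free wall differences were 0.36, -0.20 and -0.13 in paced numbers 1, 2 and 3, against 0.68, 0.12 and -0.14 in control numbers 1, 2 and 3, the 0.68 being the pair with the dimmest reading. The SD of CIPC between numbers was 0.021 in paced and 0.348 in control pigs, and that between regions 0.216 in paced and 0.159 in control pigs. CIPC read higher in the septum than in the free wall in all 3 paced pairs, by 0.73, 0.53 and 0.13. In the control pairs its differences were -0.31, -0.41 and 0.02.

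**Figure D3:**
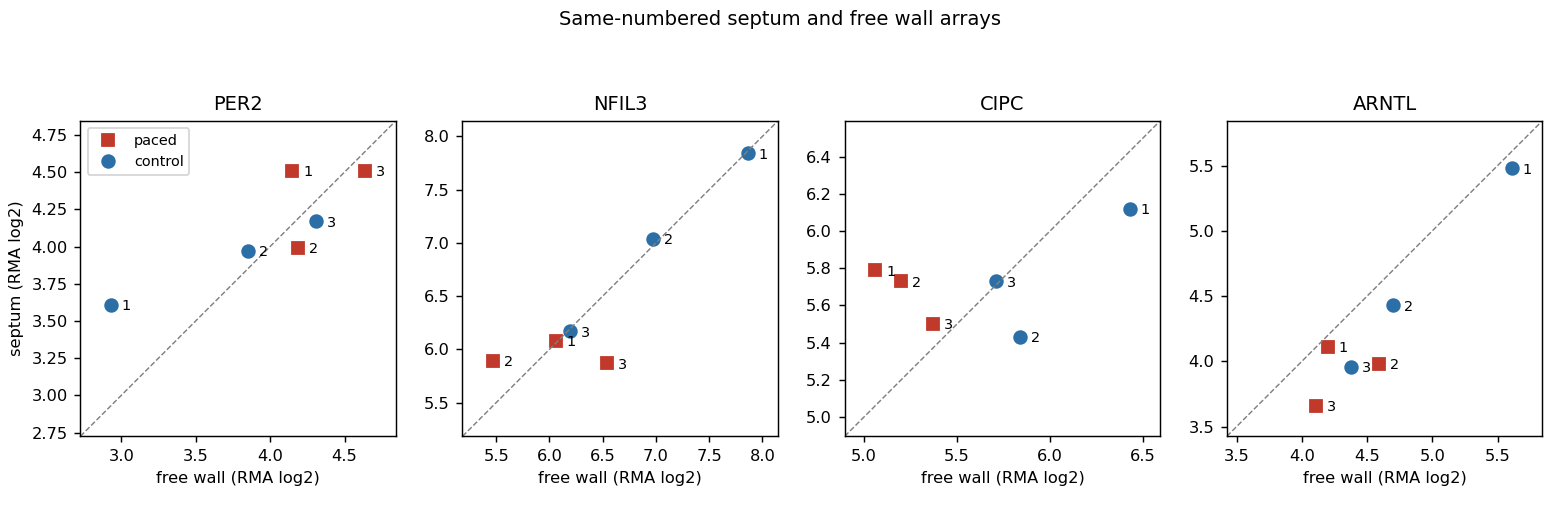
RMA log2 signal in the septum (vertical axis) against the same-numbered free wall array (horizontal axis), for PER2, NFIL3, CIPC and ARNTL; squares are paced and circles control numbers 1 to 3, and the dashed line marks equal values. The 3 paced points of NFIL3 average 5.68 to 6.21 and scatter about the line, and its 3 control points lie along the line with averages of 6.18, 7.01 and 7.85.

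The total spread of each gene over the 12 arrays was split into treatment, region, their interaction, number within treatment, and the rest. For NFIL3, treatment took 48.2% of the sum of squares, the paced numbers 4.53% and the control numbers 42.5%. For PER2, treatment took 34.8%, the paced numbers 9.90% and the control numbers 40.9%. For CIPC, treatment took 35.5%, the interaction of region and pacing 22.7%, the paced numbers 0.108% and the control numbers 30.2%. The medians over all probe sets tested were 4.75% for treatment, 3.67% for the interaction, 16.2% for the paced numbers and 12.0% for the control numbers. Treatment took a larger share than in NFIL3 in 2.25% of probe sets, and the control numbers did so in 8.25%. The same 2 figures were 6.16% and 9.14% for PER2, and 5.87% and 18.0% for CIPC. For each of the 3 genes the treatment share and the share of the 3 control numbers were thus of similar size, and most of the number share lay in control arrays. Since the control numbers also enter the treatment difference, these shares are descriptions and were not tested against each other.

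**Figure D4:**
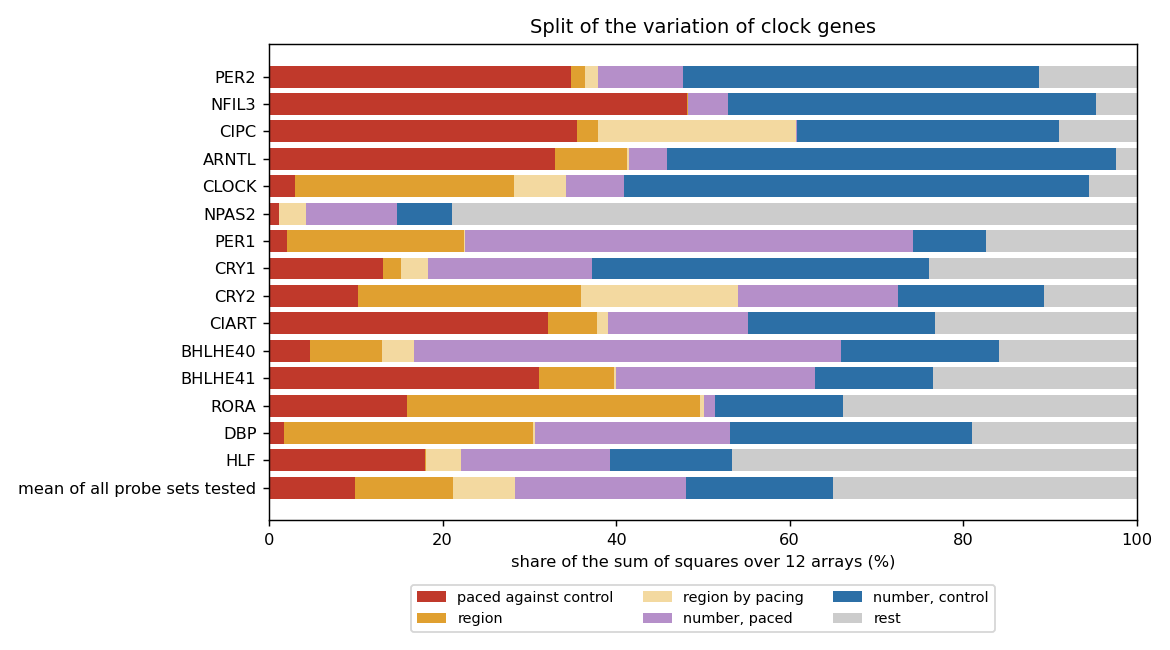
Share of the sum of squares over the 12 arrays (%, horizontal axis) taken by treatment, region, their interaction, number within paced and within control arrays, and the rest, for PER2, NFIL3, CIPC and the other core clock genes tested, with the mean of all probe sets at the bottom. In PER2, NFIL3, CIPC and ARNTL the red (treatment) and blue (control number) segments are the 2 longest.

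Further readings of the number effect were chosen after these values had been seen. A limma F test of the 3 paced numbers, with the region taken out, gave adjusted p-values of 0.850 for PER2, 0.850 for NFIL3 and 0.993 for CIPC. None of the 3 passed, and 0% of all probe sets did. The same limma F test of the 3 control numbers gave NFIL3 an F of 24.7 (unadjusted p = 0.000484, adjusted p = 0.222), PER2 an adjusted p of 0.430 and CIPC an adjusted p of 0.559. None of the 3 passed, where 0.0484% of all probe sets did.

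The order of the numbers was compared between regions as well. The order of the 3 paced numbers was the same in both regions for none of the 3 genes, against 10.4% of all probe sets. The order of the 3 control numbers was the same for NFIL3 and PER2 but not for CIPC, against 21.9% of all probe sets. Both control arrays numbered 1 lay outside the range of the other 4 control arrays for all 3 genes, above it for NFIL3 and CIPC and below it for PER2, against 19.8% of all probe sets.

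The control arrays numbered 1 also differed from the rest in markers of other cells and in a marker of ventricular muscle. The mean of the fibroblast list was taken over its 6 measured genes of 7, each centred on its 12-array mean. It was 0.02 to 0.287 in the 6 paced arrays, against -0.823 in septum control array 1, -0.867 in free wall control array 1 and -0.295 to 0.393 in the other 4 control arrays. No fibroblast gene was near background, the lowest reading being 5.58 for POSTN. The smooth muscle list, 3 genes measured of 4, read -0.089 to 0.461 in paced arrays, against -0.629 in septum control array 1, -0.359 in free wall control array 1 and 0.001 to 0.044 in the other control arrays. The endothelial list read -0.394 in free wall and -0.23 in septum control array 1, against -0.272 to 0.278 in the other arrays. The ventricular muscle list read -0.109 and -0.081 there, against -0.031 to 0.069. Within it ACTC1 read 11.40 and 11.45, against 11.82 to 12.31 in the other arrays. MYH7 (12.52 and 12.58) and RYR2 (11.39 and 11.37) were not low there. The part of these marker differences in the PER2, NFIL3 and CIPC values was not tested. With no hour of sampling and no animal given for a number, a time-of-sampling effect and a difference between animals cannot be told apart here.

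Of 49 genes in the clock lists, 32 were on the array and 30 were tested, the 3 genes above included. In the free wall 9 of the 30 had a log2 difference above 0 and 21 below, with a median of -0.07 against 0 over all probe sets. In the septum 8 lay above 0 and 22 below, with a median of -0.09 against -0.003. None passed at an adjusted p under 0.05 in the 6 comparisons, where at most 0.00968% of all probe sets did. At an unadjusted limma p under 0.05 the free wall had 3, namely KCNIP2, CIPC and NFIL3, and the septum had 2, KCNIP2 and NFIL3, all lower in paced tissue. Over all probe sets that threshold was met by 4.56% in the free wall and 4.66% in the septum.

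Among the activators, ARNTL stood closest to NFIL3 in its array pattern. It read 4.20, 4.59 and 4.11 in paced and 5.61, 4.70 and 4.38 in control free wall arrays. In the septum it read 4.11, 3.98 and 3.66 in paced and 5.48, 4.43 and 3.96 in control arrays. Control arrays 1 were the highest in both regions, as they were for NFIL3. The pacing difference was -0.60 in the free wall and -0.71 in the septum (SE 0.37 for both, limma adjusted p = 0.998 and 0.992). Treatment took 32.9% of the sum of squares of ARNTL, the paced numbers 4.30% and the control numbers 51.8%. CLOCK, the partner of ARNTL, differed by 0.14 in the free wall and -0.02 in the septum, and NPAS2, which can stand in for CLOCK, by 0.03 and -0.12.

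Among the other repressors, PER1 differed by 0.05 in the free wall and 0.09 in the septum, and CRY1 by -0.32 and -0.11. CRY2 differed by 0.31 in the free wall and by -0.04 in the septum. Its free wall groups did not overlap, as for 4 of the 30 clock genes tested, GSK3B among them, and 8.16% of all probe sets. BHLHE41, a repressor of E-box genes, differed by 0.48 in the free wall and 0.57 in the septum, and its relative BHLHE40 by -0.26 and -0.02. CIART differed by -0.39 and -0.26. The activating nuclear receptor RORA differed by -0.22 and -0.16, and the D-box activators DBP and HLF by -0.09 and -0.25 in the free wall and by -0.04 and -0.09 in the septum. None of these genes passed in either region, where 0.00484% of all probe sets did in the free wall and 0.00968% in the septum.

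Genes of clock protein turnover had small differences: CSNK2A1, BTRC, USP2 and GSK3B lay between -0.06 and 0.19 in the free wall and between -0.05 and 0.03 in the septum. Of the 11 clock output genes tested, 10 lay below 0 in the free wall and 9 in the septum. KCNIP2, which encodes an accessory protein of voltage-gated potassium channels and cycles in the mouse heart, had the smallest p of the clock lists. It read 8.19, 8.02 and 8.08 in paced and 8.39, 8.63 and 8.56 in control free wall arrays, a difference of -0.43 (SE 0.11, limma adjusted p = 0.867). In the septum it read 8.28, 8.38 and 8.16 in paced and 8.52, 8.66 and 8.63 in control arrays, a difference of -0.33 (SE 0.11, limma adjusted p = 0.992). Its groups did not overlap in either region, as for 8.16% of all probe sets in the free wall and 10.5% in the septum. Its 6 paced arrays all lay below its 6 control arrays, though barely. The highest paced reading was 8.38, in septum array 2, and the lowest control reading 8.39, in free wall array 1. How many probe sets separate all paced from all control arrays was not counted. Treatment took 76.1% of the sum of squares of KCNIP2, the paced numbers 2.44% and the control numbers 6.82%, a smaller share for the control numbers than in NFIL3, PER2 or CIPC.

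None of the remaining output genes passed, against 0.00484% of all probe sets in the free wall and 0.00968% in the septum. PDK4, a kinase that restrains glucose oxidation, differed by -0.42 in the free wall and -0.54 in the septum. NAMPT, an enzyme of NAD synthesis, differed by -0.27 and -0.15, and LPIN1 by -0.0033 and -0.29. WEE1, UCP3, TSC22D3, TCAP, DGAT2 and KLF10 lay between -0.55 and 0.05 in the free wall and between -0.22 and 0.02 in the septum. KLF9 differed by -0.04 and 0.33, and 74.3% of its sum of squares lay between the control numbers, where it read 6.55, 7.01 and 6.01 in the septum and 6.33, 7.13 and 5.84 in the free wall. Unlike NFIL3, KLF9 was highest in control number 2.

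**Figure D5:**
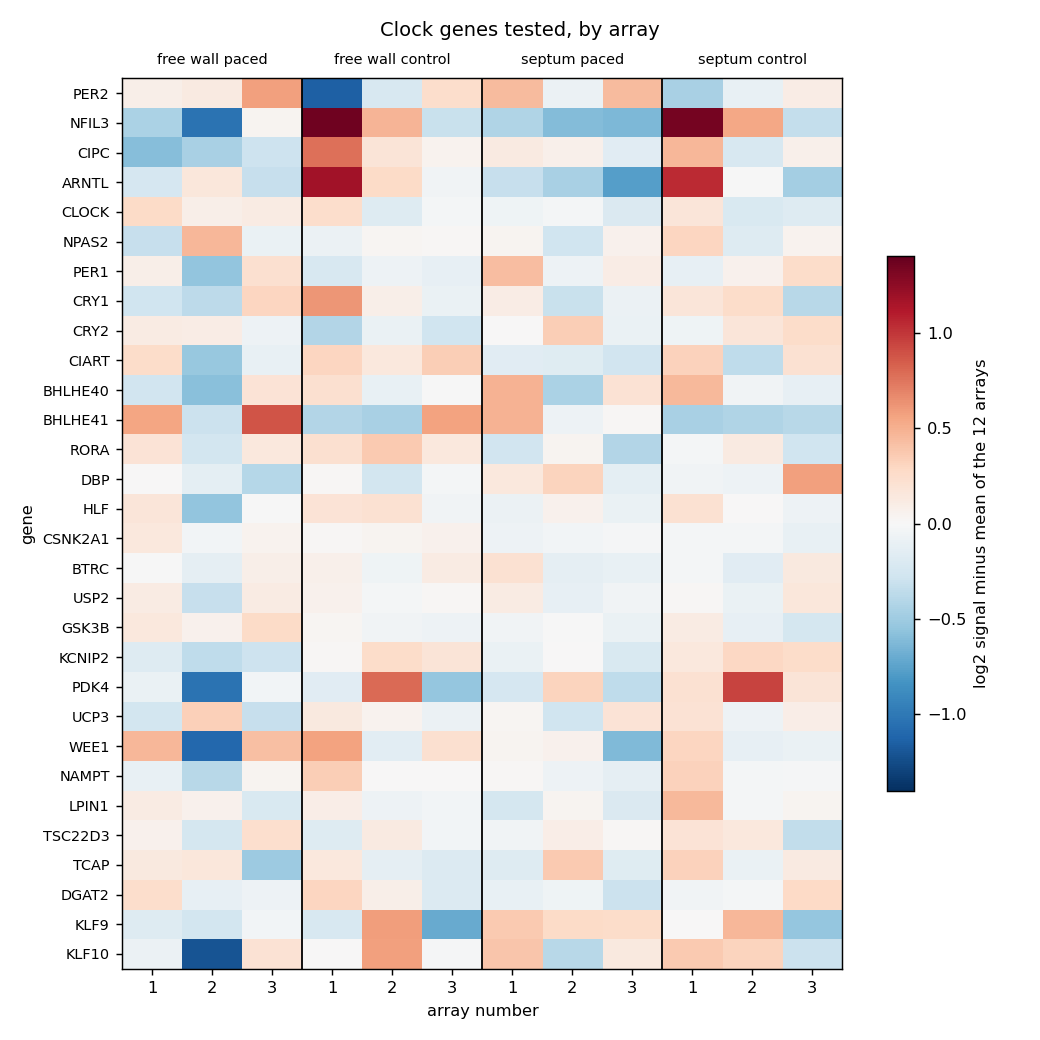
Each tested gene of the clock lists on each of the 12 arrays, as its log2 signal minus its own mean over the 12 arrays (colour scale, red above and blue below the mean), with PER2, NFIL3 and CIPC in the top 3 rows. NFIL3, CIPC and ARNTL are at their reddest, and PER2 at its bluest, in free wall control array 1.

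Across the 30 clock genes, the order of the paced numbers was the same in both regions for 0 genes, against 10.4% of all probe sets. The order of the control numbers was the same for 13 genes, against 21.9% of all probe sets. Paced arrays of one number lay outside the other 4 paced arrays for 0 genes with number 1, 8 with number 2 and 1 with number 3, against 9.66%, 12.5% and 7.97% of all probe sets. Control arrays did so for 13 genes with number 1, 7 with number 2 and 9 with number 3, against 19.8%, 13.6% and 14.6% of all probe sets. Of the 13 genes of control number 1, 11 lay above, among them ARNTL, CLOCK, CIPC, NFIL3, WEE1 and NAMPT, and 2, PER2 and KCNIP2, below. The 9 of control number 3 included NFIL3 and ARNTL below and PER2 above.

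Some clock genes also answer to glucocorticoids, temperature or acute stimuli, and lists for these were read beside them. Of 10 glucocorticoid-responsive genes tested, 3 lay above 0 and 7 below in the free wall, and 5 above and 5 below in the septum. None was called. Of all probe sets 0.00484% were called in the free wall and 0.00968% in the septum, shares that also apply to the lists below. ANGPTL4 had the smallest p of that list in both regions, with differences of -0.47 and -0.37 (limma adjusted p = 0.998 and 0.992). Of 6 temperature-responsive genes tested, 4 lay above 0 in the free wall and 3 in the septum, with none called. The cold-inducible CIRBP differed by -0.17 and -0.14. Of 10 immediate early genes tested, 8 lay above 0 in the free wall and 4 in the septum, with none called. The immediate early list was lowest in free wall paced array 2, at -0.618 relative to its 12-array mean against -0.186 to 0.46 in the other arrays, and this is also the array with the lowest NFIL3 reading.

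FKBP5, a co-chaperone of steroid receptors and a glucocorticoid-induced gene, was singled out after its values were seen because it followed NFIL3 array by array. It read 8.26, 7.45 and 8.55 in paced and 9.17, 8.80 and 8.11 in control free wall arrays. In the septum it read 8.48, 7.99 and 8.29 in paced and 9.14, 8.64 and 7.98 in control arrays. Its Pearson correlation with NFIL3 over the 12 arrays was 0.922, and 0.949 over the deviations from group means. From the same glucocorticoid list, PER1, KLF9 and TSC22D3 correlated with NFIL3 over the 12 arrays at only -0.079, 0.141 and 0.305. Correlations of the other genes of that list were not taken. FKBP5 was thus picked from a list whose members did not all follow NFIL3. The pacing difference of FKBP5 was -0.61 in the free wall (SE 0.35) and -0.33 in the septum (SE 0.35), with limma adjusted p-values of 0.998 and 0.992.

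Over the 12 arrays PER2 and NFIL3 correlated at -0.755, PER2 and CIPC at -0.705, and NFIL3 and CIPC at 0.714. With ARNTL the correlations were -0.848 for PER2, 0.819 for NFIL3 and 0.648 for CIPC. Over the deviations from group means, which leave out treatment and region, the 3 member pairs correlated at -0.61, -0.642 and 0.706. These describe 12 arrays that fall into 4 groups, with both control arrays numbered 1 at the extremes, and are no test.

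The named genes whose pattern was most like each member were ranked by Pearson correlation over the 12 arrays. For NFIL3 the 5 highest were CTSV (0.959), SORT1 (0.943), GANC (0.932), SGMS1 (0.930) and HBP1 (0.930), and the 5 lowest were FGD1 (-0.902), GAS8 (-0.883), RMDN1 (-0.875), CCT7 (-0.868) and CXCL12 (-0.868). For PER2 the 5 highest were FAM167B (0.888), SPATS2L (0.886), LAMA4 (0.880), EPAS1 (0.877) and NME7 (0.874), and the 5 lowest were CTSL (-0.918), GPX3 (-0.891), SPCS2 (-0.868), AGO4 (-0.867) and CCL26 (-0.866). For CIPC the 5 highest were TANGO2 (0.908), IP6K1 (0.883), OAT (0.880), PRKCE (0.865) and ETV3 (0.860), and the 5 lowest were KLF13 (-0.889), PHF19 (-0.886), HSPA8 (-0.880), ITPKC (-0.869) and PPP3CA (-0.857). None of these 30 genes stands in the clock lists. The rankings were not stable: of the 10 genes of a member, the ranking over deviations from group means kept 0 for NFIL3, 2 for PER2 and 1 for CIPC, and that by Spearman correlation kept 4 for NFIL3, 0 for PER2 and 3 for CIPC.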

How the data were processed

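Per the labels, left ventricular total RNA (Trizol) was biotin-labelled for Affymetrix arrays. The authors deposited log2 signals for which Affymetrix Expression Console 1.4 and RMA are listed, per the submitters' processing notes. RMA evens out the arrays, so a shift shared by most genes of an array would be largely removed. The deposited values did not share one distribution, as array medians still lay between 4.31 and 4.45. The array's genome build was not given in the sources used here. The table held 27558 probe sets with 2 decimals and 0 missing values. Symbols came from the platform annotation: 13323 probe sets had 1 symbol, 357 several and 13878 none, and 7 symbols were updated through a RefSeq table of the pig.

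The 25% of probe sets with the lowest mean over 12 arrays (under 3.0) were left out, and 20669 were tested with limma 3.58.1 in R 4.3.3, two-sided, with 1 mean per group and Benjamini-Hochberg adjustment. Precision is limited by the number of arrays. For the regions together, same-numbered arrays of a treatment were averaged before the fit. The code was tested on simulated data. Figures were drawn with matplotlib 3.10.9.

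Deviations from the group means correlated between same-numbered arrays of the regions at 0.09, -0.17 and -0.18 in paced pigs, against 0.32, 0.25 and 0.24 in control pigs. The labels do not say what a number marks, so the fits carry no block.

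PER2, NFIL3, CIPC, the lists and the tests were chosen with earlier results of these data known. The genes named are these 3 in every comparison, the other tested clock genes by their log2 difference, genes of smallest p in the other lists, and for each of the 3 the 5 genes of highest and of lowest correlation. FKBP5, the F test of numbers and the count of arrays outside the others were chosen after values were seen. Clock genes that were not matched, among them PER3, NR1D1, NR1D2, TEF and KLF15, are not analysed here. ARNTL2 and RORB fell under the filter. Alternatives were other filters, centring, array weights, trended robust moderation, replicate blocks, fits on part of the arrays and leaving out arrays.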

Additional observations from a re-analysis of the deposited data

How the results depend on the processing

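Of 526 results recomputed under an alternative, 502 kept their direction and their side of the threshold or their size, 22 changed sign and 2 moved. No alternative brought PER2, NFIL3 or CIPC under an adjusted limma p of 0.05 in any of the 6 comparisons. The pacing differences of NFIL3 and PER2 kept their direction throughout, and so did that of CIPC in the free wall and with regions averaged. Leaving out each array in turn gave -1.39 to -0.56 for NFIL3, 0.25 to 0.94 for PER2 and -0.93 to -0.57 for CIPC in the free wall, and -1.49 to -0.66 for NFIL3 and 0.27 to 0.59 for PER2 in the septum.

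The signs that turned belong to differences of -0.21 to 0.22, each within its standard error. The septum difference of CIPC was 0.0042 with array weights and 0.0933 without both control arrays 1, and -0.25 to 0.09 when each array was left out. The difference of effects was 0.02 for PER2 without both control arrays 1, -0.52 to 0.17 for PER2 and -0.51 to 0.33 for NFIL3 when each array was left out. Septum minus free wall in paced pigs was -0.0132 for PER2 with array weights and -0.0167 with centred arrays, and -0.0783 to 0.18 for PER2 and -0.35 to 0.18 for NFIL3 when each array was left out. In control pigs it was -0.01 for PER2 without both control arrays 1 and -0.0133 for NFIL3 with centred arrays. When each array was left out, it was -0.16 to 0.53 for PER2 and -0.40 to 0.44 for NFIL3. Leaving out 1 array keeps its same-numbered partner, so these ranges hold the spread between numbers. Within control numbers 1, 2 and 3 the NFIL3 differences were -0.02, 0.07 and -0.02. Without both control arrays 1 the SD between control numbers was 0.583 for NFIL3 and 0.0601 for CIPC. These rest on control numbers 2 and 3, which averaged 7.01 and 6.18 for NFIL3 and 5.64 and 5.72 for CIPC. The causes of these changes were not tested. At the stricter filter PER2 fell below the limit and has no value.

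The replicate numbers do not pair the arrays by the labels. With treatment and number as a random block, the averaged NFIL3 difference was -1.03 (limma adjusted p = 0.546). That fit used 1 correlation of 0.031 for all probe sets, so it took the regions of a number as nearly separate. With the number as a fixed block the limma adjusted p of NFIL3 was 0.998. That block joins paced and control arrays of the same number, which the labels do not link. The block changed no call. No paced array correlated best with its own number in the other region, and every control array did.

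Leaving out both arrays of a number was chosen after seeing the data. With 3 arrays a group, a PER2 reading near the array's lower quartile and no label for hour of sampling or animal, pacing and the spread between numbers can be measured side by side but not separated further.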
